A study of Mus musculus with 72 samples.

Results

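The cerebellum was compared with 4 forebrain areas of the same mouse, by the CpG methylation of imprinted and control regions on each parental allele. The members are the 40 brain libraries of 1 sequencing lane, namely 8 of cerebellum and 32 of hippocampus, prefrontal cortex, hypothalamus and nucleus accumbens, out of 72 samples in the series. They were chosen by tissue and lane, not by a measured value. The method is IMPLICON, in which bisulfite-converted DNA is amplified at chosen regions and each read is assigned to a parental genome by variants between the BL6 (C57BL/6) and CAST (Mus musculus castaneus) strains. A methylation level is the percent of calls at a CpG that were methylated. For each mouse, region and allele, the forebrain mean over its areas was subtracted from the cerebellum level, and the difference is given in percentage points.

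The mice were female F1 hybrids of both reciprocal crosses, with 1 library per mouse and tissue. Old mice 1 and 2 were 101 weeks old with a BL6 mother and a CAST father, and old mice 3 and 4 were 103 weeks old with a CAST mother and a BL6 father. Young mice 5 and 6 were 8 weeks old with a CAST mother, and young mice 7 and 8 were 9 weeks old with a BL6 mother. The study asked how stable imprinting stays with age in the brain, and the contrast between areas crosses that question within each animal. The areas are bulk tissue, so a different level within cells and a different mix of cells cannot be told apart, and the amplicons hold no tissue marker against which the area labels could be checked.

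An imprinted gene is expressed from 1 parental copy, and in the regions measured here the maternal copy carries the methylation that marks it. This mark is set in the germ line and is kept in the body through cell division. The non-imprinted controls were read in the same libraries, and their levels were not fixed across tissues. Klf4 encodes a pluripotency factor and its amplicon was nearly unmethylated, while the amplicon at Prickle1, a gene of the planar cell polarity pathway, was nearly fully methylated. Sox2ot is a long non-coding RNA gene that overlaps Sox2, which encodes a transcription factor of neural stem and progenitor cells. The cerebellum differs from the forebrain areas in its cells, most of which are small granule neurons.

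A CpG was compared in a mouse when it had at least 50 calls on the allele in the cerebellum and in at least 3 of the 4 forebrain areas. Of 16 regions in the table, 9 gave a value in at least 4 mice on at least 1 allele, which made 17 pairs of region and allele. These were the imprinted regions Commd1, Gnas, H13, Impact, Mest (maternal allele alone) and Plagl1, and the controls Klf4, Prickle1 and Sox2ot. Paternal Mest had values in 3 mice and paternal Snrpn in 1, so neither was tested. In that 1 animal, young mouse 5, paternal Snrpn stood at 5.70% in the cerebellum and 14.7% in the forebrain. The remaining regions had no value.

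Cerebellum libraries held 18747 to 461238 calls and forebrain libraries 376 to 182229. On the log2 scale the calls of the cerebellum exceeded the forebrain mean of the same mouse by 0.70 ± 1.72 (SD, n = 8; exact two-sided sign-flip test, p = 0.305). Mouse 3 held both the cerebellum library with 461238 calls and the hippocampus library with 376, and weighs heavily in this mean and SD. That hippocampus library had no CpG at the minimum. The prefrontal cortex library of mouse 5 went against the imprint of 2 regions. There the maternal Gnas level was 2.65% and the paternal Plagl1 level 62.8%. The cerebellum minus forebrain comparisons, per region and per CpG, and their tests by parental allele, age and cross were repeated without this library. The comparisons with the prefrontal cortex alone, between forebrain areas and with lung include it and were not repeated without it.

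The Sox2ot amplicon lies at chr3:34649361-34649591 on GRCm38 (first to last CpG), 634 to 404 bases before the annotated start of Sox2 on the plus strand. The nearest stretch with a sequence at hand begins downstream of it. It is the RefSeq window around the Sox2 start (GRCm38.p6, chr3:34649745-34650044, plus strand), which shows the CpG-dense surroundings of the amplicon. Its 27 CpGs are in capitals, and 0 of them were measured.
Sox2 start window: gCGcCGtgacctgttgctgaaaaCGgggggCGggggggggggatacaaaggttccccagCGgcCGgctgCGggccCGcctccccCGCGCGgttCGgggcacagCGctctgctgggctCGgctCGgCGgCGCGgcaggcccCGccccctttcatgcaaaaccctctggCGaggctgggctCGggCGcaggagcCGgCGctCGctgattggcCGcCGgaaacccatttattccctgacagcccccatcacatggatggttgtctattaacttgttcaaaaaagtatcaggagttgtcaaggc
The amplicons of H13 and Commd1 reach into RefSeq windows of the imprinted retrogenes Mcts2 and Zrsr1, which lie inside these host genes. The overlaps are shown because the largest maternal differences among the imprinted regions include these amplicons. The first is at chr2:152686898-152686971 and the second at chr11:22971952-22972054, both on the plus strand of GRCm38.p6, and capitals mark the 6 compared CpGs in each.
Mcts2 overlap: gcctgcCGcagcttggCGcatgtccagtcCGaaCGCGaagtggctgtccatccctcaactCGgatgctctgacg
Zrsr1 overlap: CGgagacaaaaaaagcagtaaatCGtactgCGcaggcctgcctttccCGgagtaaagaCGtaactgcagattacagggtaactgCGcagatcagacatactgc

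Of the 17 pairs of region and allele, 2 were lower in the cerebellum at an adjusted p under 0.05 (11.8%) and 0 were higher (0%). Both were alleles of Sox2ot. Adjusted p-values are from limma on the within-mouse differences, two-sided, with Benjamini-Hochberg adjustment over all 17. An unadjusted p under 0.05 was found for 3, the third being paternal Klf4. Over all 17 the median difference was -0.37 points, with 9 lower and 8 higher in the cerebellum.

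**Figure D1:**
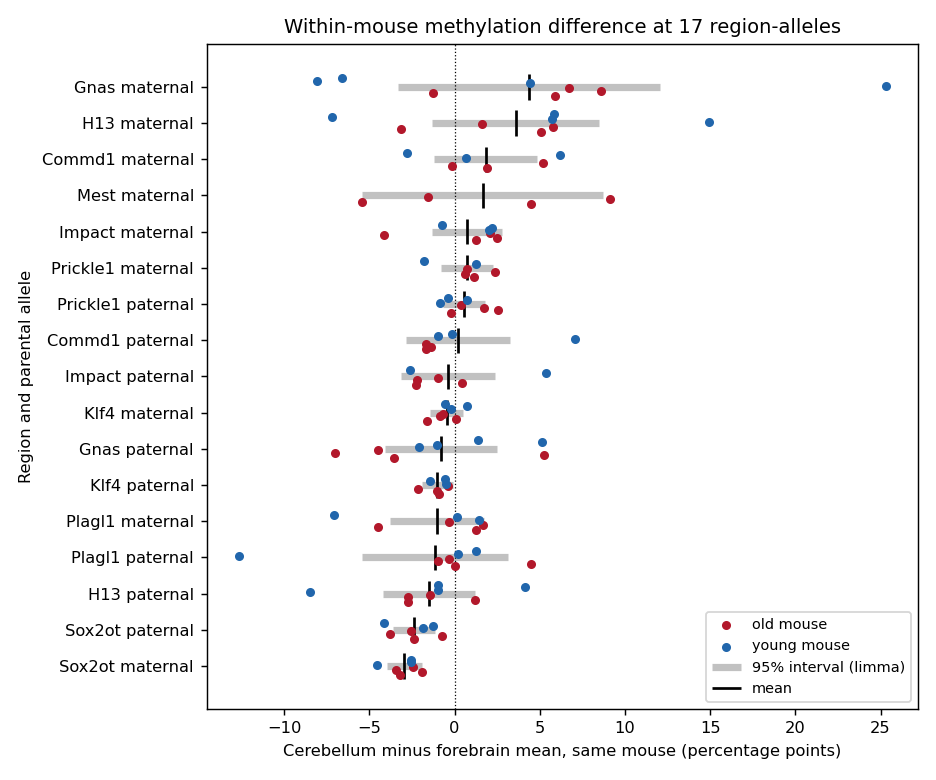
Within-mouse difference in methylation level, cerebellum minus forebrain mean, in percentage points, for the 17 pairs of region and allele. Points are mice colored by age group, black ticks are means and grey bars are 95% intervals from limma. The intervals of both Sox2ot alleles and of paternal Klf4 lie below 0, and the widest scatter is at maternal Gnas, up to 25.3 points in mouse 5.

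The difference plot shows small scatter at the controls and wide scatter at the imprinted regions. The SD of the difference over mice was 0.876 points at maternal Sox2ot and 10.5 points at maternal Gnas. A difference of the size seen at Sox2ot would therefore be within the spread of the mice at Gnas.

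On the maternal allele, Sox2ot stood at 1.66% (mouse 1), 1.85% (mouse 2), 1.95% (mouse 3), 1.51% (mouse 4), 0.788% (mouse 5), 2.44% (mouse 6) and 1.62% (mouse 7) in the cerebellum. The forebrain means of the same mice, in the same order, were 4.84, 3.74, 5.39, 3.96, 5.34, 4.97 and 4.14%. In mice 1 and 3 the hippocampus gave no Sox2ot value on either allele, so their forebrain means leave out that area. Every cerebellum value was below every forebrain mean, and mouse 8, the animal with the shallowest cerebellum library, had no value. The cerebellum had 1.69% ± 0.501 (SD, n = 7) and the forebrain 4.63% ± 0.675, which is 2.74-fold. The difference was -2.94 points (SE 0.443, 95% interval -3.97 to -1.90, limma adjusted p = 0.00362). With all 4 areas required it was -2.79 points (limma adjusted p = 0.0398).

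On the paternal allele, Sox2ot stood at 2.98% (mouse 1), 2.47% (mouse 2), 1.30% (mouse 3), 0.969% (mouse 4), 2.48% (mouse 5), 2.88% (mouse 6) and 1.19% (mouse 7) in the cerebellum. The forebrain means, in the same order, were 5.37, 3.22, 5.07, 3.50, 4.34, 4.15 and 5.33%. The ranges did not overlap here either, though mouse 2 came close, at -0.75 points. The cerebellum had 2.04% ± 0.856 (SD, n = 7) and the forebrain 4.43% ± 0.866. The difference was -2.39 points (SE 0.533, 95% interval -3.63 to -1.15, limma adjusted p = 0.0200). The paternal call is the less stable one. It missed the threshold without mouse 1 (limma adjusted p = 0.0571) or mouse 4 (0.0620), and in the edgeR test on calls (0.207). With all 4 areas required, the paternal difference was -2.11 points and missed it too (limma adjusted p = 0.130).

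All 7 mice were lower in the cerebellum on each allele, for which the exact two-sided sign-flip test gives p = 0.0156, the smallest that 7 mice allow. The maternal and the paternal difference of Sox2ot differed by -0.55 points (95% interval -1.94 to 0.84, n = 7, limma adjusted p = 0.597). Among the 8 regions with both alleles, 0 passed this test of unequal alleles (0%), and 0 had an unadjusted p under 0.05. The lowest p-values belonged to H13, at 5.08 points (limma adjusted p = 0.597; 3.17 points without the prefrontal cortex library of mouse 5), and Klf4, at 0.66 points (adjusted p = 0.597). The median CpG of Sox2ot had 142 maternal and 130.5 paternal calls in the median cerebellum library, so that levels of 1 to 2% rest on few methylated calls per CpG. Without the prefrontal cortex library of mouse 5, the differences were -3.02 and -2.41 points.

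The comparison was repeated against each forebrain area alone. The cerebellum was lower than the hypothalamus on both Sox2ot alleles, 2 of 18 pairs tested (11.1%), and lower than the nucleus accumbens on both, 2 of 17 (11.8%). Against the hippocampus and the prefrontal cortex, 0 of 16 (0%) and 0 of 18 (0%) passed. The 4 comparisons share the cerebellum libraries.

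The hypothalamus controls hormonal and homeostatic functions. Its maternal Sox2ot levels ran from 3.98 to 8.45%, all above the highest cerebellum value of 2.44%. The difference was -5.21 points (95% interval -6.85 to -3.57, n = 7, limma adjusted p = 0.00167). On the paternal allele the hypothalamus ran from 2.56% in mouse 2 to 8.97% in mouse 1, and the lowest value lay within the cerebellum range. Still, all 7 mice were lower in the cerebellum, by -4.15 points on average (95% interval -6.43 to -1.88, limma adjusted p = 0.0279). Here the paternal call was lost without mouse 1, 3, 4, 5 or 7, with limma adjusted p-values from 0.0558 to 0.0931.

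The nucleus accumbens is part of the ventral striatum and of the reward circuit. Its Sox2ot levels ran from 3.79 to 7.39% on the maternal and from 4.71 to 8.65% on the paternal allele, above the whole cerebellum range on either. The cerebellum differed from it by -4.16 points on the maternal allele (95% interval -5.44 to -2.88, n = 7, limma adjusted p = 0.00141). The paternal difference was -4.19 points (95% interval -5.80 to -2.57, n = 7, limma adjusted p = 0.00318).

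The hippocampus, which forms memories, had maternal Sox2ot levels of 3.17% (mouse 2), 1.02% (mouse 4), 4.48% (mouse 5), 2.36% (mouse 6) and 1.70% (mouse 7). Its paternal levels in these mice were 1.41, 1.59, 1.86, 2.16 and 1.27%. These values overlap those of the cerebellum on both alleles. The cerebellum differed by -0.90 points on the maternal (95% interval -2.92 to 1.11) and by 0.34 points on the paternal allele (95% interval -1.14 to 1.82, n = 5 each; limma adjusted p = 0.815 for each). The paternal interval excludes a difference of the size seen against the nucleus accumbens, and so does the maternal one.

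The prefrontal cortex, which serves planning and control, had a mean of 2.47% ± 0.886 (SD, n = 7) on the maternal and 2.61% ± 0.730 on the paternal Sox2ot allele. Its range was 1.28 to 3.69% and 1.82 to 3.93%, again overlapping the cerebellum. The cerebellum differed by -0.79 points on the maternal allele (95% interval -2.17 to 0.60, n = 7, limma adjusted p = 0.639). On the paternal allele, where mouse 8 also had a value, it differed by -0.23 points (95% interval -1.57 to 1.10, n = 8, limma adjusted p = 0.846).

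**Figure D2:**
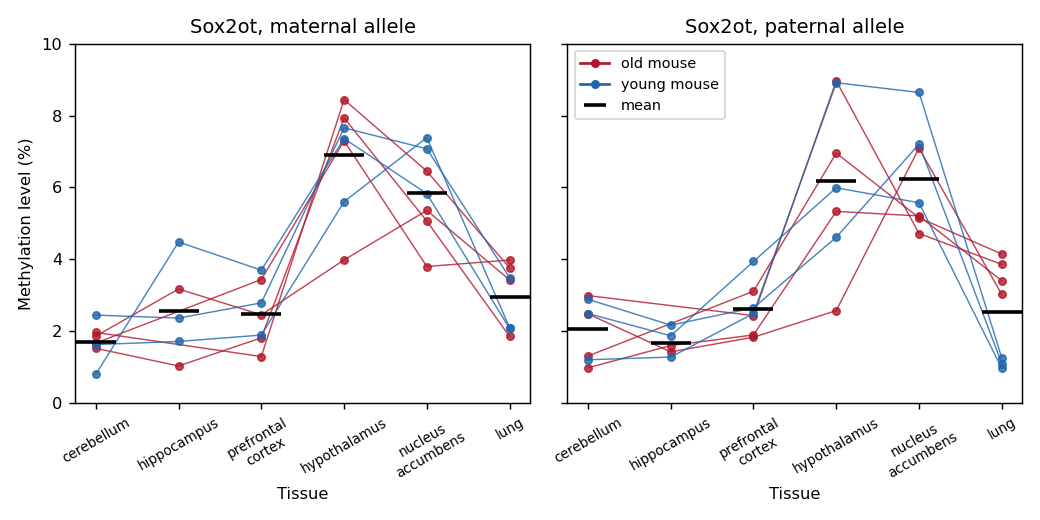
Sox2ot methylation level in percent by tissue, maternal allele on the left and paternal allele on the right. Each line joins the tissues of 1 mouse, colored by age group, and black ticks are means. Hypothalamus and nucleus accumbens sit high, with means of 6.90 and 5.85% on the maternal and 6.19 and 6.23% on the paternal allele.

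In the plot of Sox2ot by tissue, the order of the maternal means was cerebellum (1.69%), prefrontal cortex (2.47%), hippocampus (2.54%), nucleus accumbens (5.85%) and hypothalamus (6.90%). The paternal order began with hippocampus (1.66%) and cerebellum (2.04%), followed by prefrontal cortex (2.61%), hypothalamus (6.19%) and nucleus accumbens (6.23%). Since the gap lay inside the forebrain, all 6 pairs of forebrain areas were compared as well. These comparisons were chosen after the values were seen and do not stand as separate evidence.

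Against the nucleus accumbens, the hippocampus was lower on both Sox2ot alleles, by -3.60 points on the maternal (limma adjusted p = 0.0285) and -5.09 points on the paternal allele (0.00539), with 25% of 16 pairs of region and allele called. Maternal Gnas (5.22 points, limma adjusted p = 0.0287) and paternal Prickle1 (-1.71 points, 0.0360) were the other pairs called there. At Sox2ot the prefrontal cortex was lower than the nucleus accumbens by -3.38 and -3.61 points (limma adjusted p = 0.0255 for each), with 23.5% of 17 called. Maternal Plagl1 (3.86 points) and paternal Prickle1 (-2.42 points) were also called (limma adjusted p = 0.0461 for each). The prefrontal cortex library of mouse 5 is included there. Against the hypothalamus, the prefrontal cortex was lower on the maternal Sox2ot allele by -4.42 points (limma adjusted p = 0.0187), with 5.56% of 18 called. The paternal difference of -3.58 points had an adjusted p of 0.0577. The hippocampus differed from the hypothalamus by -3.96 and -3.82 points (limma adjusted p = 0.0868 for each; 0% of 16 called). Hippocampus and prefrontal cortex differed by 0.02 and -0.90 points, and hypothalamus and nucleus accumbens by 1.05 and -0.04 points, none of which was called (0% for each pair of areas).

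Lung, the control organ of the same mice, helps to place the 2 sides. The forebrain mean of Sox2ot was above lung by 1.68 points on the maternal allele (4.63 against 2.95%, n = 7, limma adjusted p = 0.0274; over all regions 29.4% of 17 called, 23.5% higher and 5.88% lower). Paternal Sox2ot was above by 1.90 points (4.43 against 2.53%, adjusted p = 0.0505). All 7 mice were higher in the forebrain on each allele. The cerebellum differed from lung by -1.26 points on the maternal allele (95% interval -2.37 to -0.145, limma adjusted p = 0.142), lower in 7 of 7 mice. On the paternal allele it differed by -0.49 points (limma adjusted p = 0.671), lower in 5 of 7, with 5.56% of 18 called. The prefrontal cortex means over 7 mice were 2.47% (maternal) and 2.61% (paternal), beside lung means of 2.95 and 2.53%. The hippocampus means (2.54 and 1.66%) rest on 5 of these mice, so they cannot be ranked against lung means over 7. The comparisons share their lung and brain libraries.

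Within the amplicon, 14 of 17 CpGs could be compared. On the maternal allele 14 of 14 were lower in the cerebellum, and on the paternal allele 13 of 14. Such one-sided counts also occurred at some pairs without a called CpG, as with 15 of 15 lower at paternal Klf4 and 18 of 18 higher at maternal H13. Over the CpGs of all tested regions, taken on each allele, 3 were called lower at a limma adjusted p under 0.05 (1.44%) and 0 were called higher (0%), while 23 had an unadjusted p under 0.05. All 3 lie at the end of the Sox2ot amplicon that is far from Sox2, but that location depends on the threshold. Further Sox2ot CpGs toward either end fell just short, with limma adjusted p-values from 0.0522 to 0.0554. Among them were maternal CpGs 13, 14 and 15, toward Sox2, at -3.29, -3.74 and -3.02 points (limma adjusted p = 0.0554 for each). CpGs of an amplicon share their reads and are not independent.

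CpG 2, at position 34649370 and 625 bases before the Sox2 start, had 1.01% in the cerebellum and 6.95% in the forebrain on the maternal allele. That is a difference of -5.94 points (SE 0.951, n = 7, limma adjusted p = 0.0203). Its paternal levels were 1.91 and 7.32%, a gap of -5.41 points (SE 1.03, limma adjusted p = 0.0451). CpG 3, at position 34649383, had 0.631 and 5.79% on the maternal allele, a difference of -5.16 points (SE 0.703, limma adjusted p = 0.0126). At each of these, all 7 mice were lower in the cerebellum. The smallest differences lay in the middle, with -0.74 points at CpG 7 on the maternal and 0.02 points at CpG 9 on the paternal allele.

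**Figure D3:**
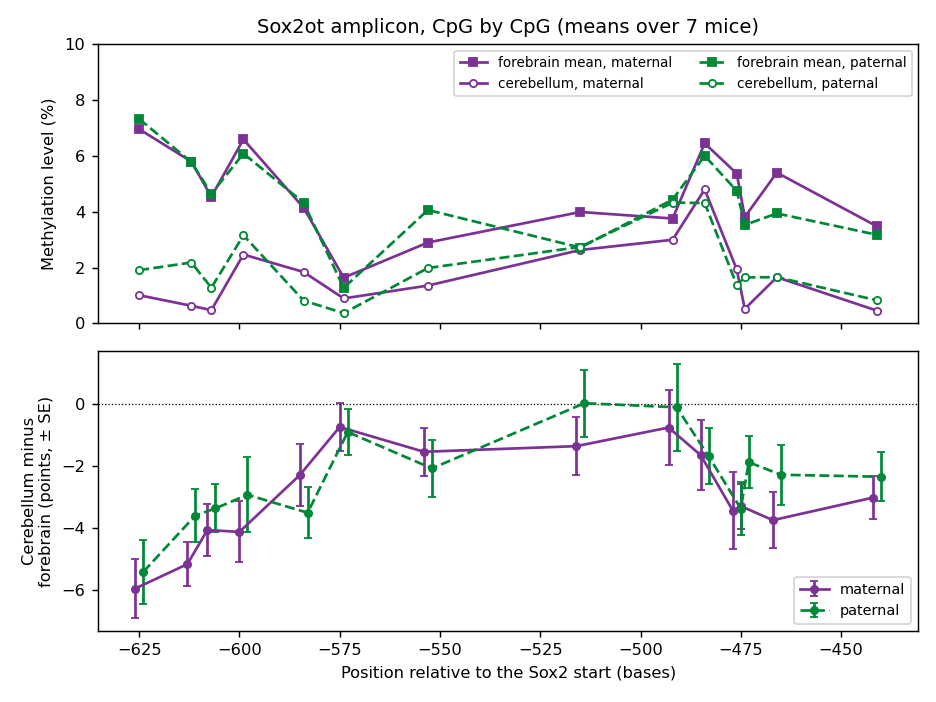
Sox2ot CpGs by their position in bases relative to the Sox2 start. The upper panel gives the mean level in percent in cerebellum (open circles) and forebrain (filled squares), and the lower panel the difference in points with its SE, for maternal and paternal alleles over 7 mice, set 1 base to either side for sight. Differences are largest at the left end, reach about 0 on the paternal allele at CpG 9, and grow again to the right.

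The plot of single CpGs shows a dip in the middle of the amplicon on both alleles. The maternal and the paternal difference went together over the 14 CpGs (Pearson r = 0.856, Spearman rho = 0.820). This is a description, since both alleles come from the same libraries and the CpGs from the same molecules. The calls per CpG depend on the prefrontal cortex library of mouse 5. Without it, 11 CpGs passed, all of Sox2ot, 7 maternal and 4 paternal. Without mouse 1 there were 0, and without mouse 6 there was 1.

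Klf4 shows how low levels behave in the same libraries at another unmethylated amplicon. Its maternal level was 1.36% ± 0.720 (SD, n = 7) in the cerebellum and 1.80% ± 0.553 in the forebrain, which differ by -0.44 points (limma 95% interval -1.41 to 0.53, adjusted p = 0.542). Its paternal level was 1.02% ± 0.531 and 2.02% ± 0.318. The 95% interval of that difference was -1.91 to -0.09 points, and 7 of 7 mice were lower, with an unadjusted limma p of 0.0349 and an adjusted p of 0.198. Paternal Klf4 and paternal Sox2ot had the same exact sign-flip p (0.0156) and the same edgeR adjusted p (0.207), so these tests do not separate them.

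With the Klf4 difference of the same mouse (the mean over its alleles) taken off, Sox2ot was lower in 7 of 7 mice on each allele. The mean was -2.22 points on the maternal (limma adjusted p = 0.0217) and -1.67 points on the paternal allele (adjusted p = 0.163). This subtraction was added after the values were seen. At Prickle1 the cerebellum was at 92.1 against 91.3% on the maternal and at 92.8 against 92.3% on the paternal allele. These differences of 0.73 and 0.57 points were not called (limma adjusted p = 0.542 for each). The forebrain mean of Prickle1 was above lung by 2.58 (maternal) and 2.38 points (paternal), both called (limma adjusted p = 0.0264 for each).

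At the imprinted regions, 0 of 11 pairs of region and allele were called. On the maternal allele 5 of 6 regions were higher in the cerebellum, with a median difference of 1.74 points and a range of -1.05 to 4.38. On the paternal allele 4 of 5 were lower, with a median of -0.80 points and a range of -1.50 to 0.20. Without the prefrontal cortex library of mouse 5, maternal regions ran from -0.66 to 2.34 points, again with 5 of 6 higher, and paternal ones from -0.92 to 0.99, with 3 of 5 lower. For comparison, the median over all 17, with that library, was -0.37 points. Outside Sox2ot, the differences with the largest size were those of maternal Gnas, H13 and Commd1.

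Gnas encodes the stimulatory G protein alpha subunit, and its amplicon lies at chr2:174295708-174295954. Maternal Gnas ran from 68.4 to 92.1% in the cerebellum and from 61.4 to 86.2% in the forebrain mean. The lowest forebrain mean was that of mouse 5, whose prefrontal cortex library held the 2.65%, and the ranges overlapped widely. The difference was 4.38 points (95% interval -3.30 to 12.1, n = 8, limma adjusted p = 0.542), higher in 5 and lower in 3 mice. Without that library it was 1.94 points, and 1.39 with mouse 5 left out. Paternal Gnas differed by -0.80 points (95% interval -4.11 to 2.51).

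H13 encodes a signal peptide peptidase. Maternal H13 (chr2:152686786-152686970) ran from 75.9 to 94.6% in the cerebellum and from 70.1 to 88.8% in the forebrain mean. The difference was 3.58 points (95% interval -1.32 to 8.48, n = 8, limma adjusted p = 0.542), higher in 6 mice and lower in 2. It was 2.34 points without the prefrontal cortex library of mouse 5, in which maternal H13 was at 46.1%, and 1.96 points without mouse 5. All 18 of its compared CpGs were higher on the maternal and 17 of 18 lower on the paternal allele, with 0 called. The paternal exception, CpG 18 near the end of the amplicon, stood near 50% on both alleles (48.3% maternal and 49.5% paternal in the cerebellum), and without such end CpGs of H13 and Prickle1 the maternal H13 difference was 3.75 points. In the Mcts2 overlap printed above, the 6 maternal differences ran from 0.766 to 4.90 points.

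Commd1 encodes a copper metabolism protein. Maternal Commd1 (chr11:22971952-22972139) had 93.7% ± 2.28 (SD, n = 6) in the cerebellum and 91.8% ± 2.17 in the forebrain. The difference was 1.84 points (95% interval -1.18 to 4.86, limma adjusted p = 0.542), higher in 4 mice and lower in 2. It was 0.97 points without mouse 6, 1.16 without mouse 3, 2.76 without mouse 7 and 3.31 at a minimum of 20 calls, called in none of these. Within the Zrsr1 overlap printed above, the 6 maternal differences ran from 1.42 to 4.73 points and the 6 paternal ones from -0.231 to 1.27.

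The remaining imprinted regions moved less on average. Plagl1, which encodes a zinc finger protein, differed by -1.05 points on the maternal (n = 7) and -1.13 points on the paternal allele, and the latter was 0.99 without the prefrontal cortex library of mouse 5. Impact, a regulator of translation, differed by 0.74 points on the maternal (n = 7) and -0.37 points on the paternal allele (n = 6). Maternal Mest, a gene of the hydrolase family, differed by 1.65 points in 4 mice. The 95% intervals at Plagl1, Impact and Mest all include 0.

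The direction at imprinted regions differed between mice. The mean maternal difference over the regions of a mouse was 3.32 points (mouse 1), -1.98 (mouse 2), 4.37 (mouse 3), 1.70 (mouse 4), 8.87 (mouse 5), 3.73 (mouse 6), -5.17 (mouse 7) and -0.39 (mouse 8). The mean paternal differences, in the same order, were -1.87, 2.27, -3.53, -1.79, -5.02, 0.52, 1.55 and 0.19 points. These means include untested Mest and Snrpn values and rest on 4 to 6 regions, but on 2 in mouse 8. In 7 of the 8 mice, mouse 6 being the exception, the means of the alleles had opposite signs, and in 6 of 8 without the prefrontal cortex library of mouse 5. In mouse 7 all 5 maternal regions were lower, and in mouse 1 all 6 were higher.

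**Figure D4:**
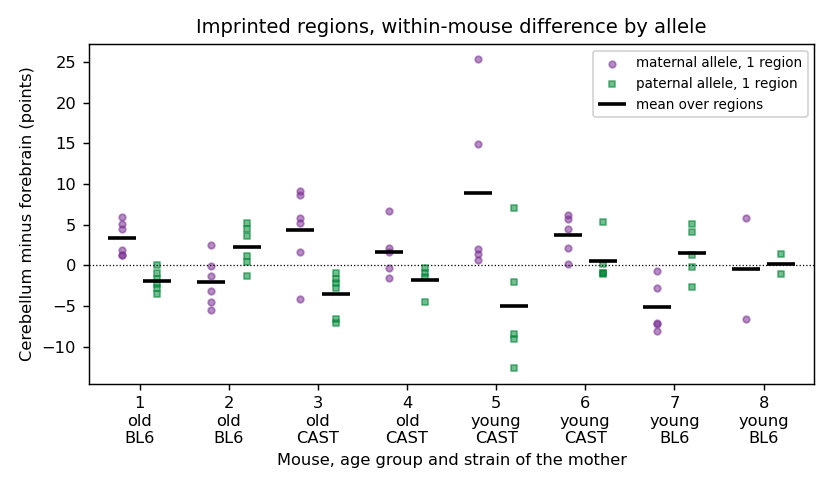
Cerebellum minus forebrain difference in percentage points at imprinted regions, by mouse, with age group and strain of the mother under each mouse number. Circles are maternal and squares paternal alleles of single regions, and black ticks are means over regions. Mice 1, 3, 4 and 5 have maternal means above and paternal means below 0, while mice 2, 7 and 8 have the reverse, all libraries included.

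In the plot by mouse, the gap between the alleles (maternal minus paternal difference) was wider in the cerebellum by 5.19, 7.90, 3.49, 13.9 and 3.21 points in mice 1, 3, 4, 5 and 6. It was narrower, at -4.25, -6.72 and -0.585 points, in mice 2, 7 and 8. The calls of the cerebellum library divided by the median of the forebrain libraries were 1.71, 7.94, 2.02, 1.18 and 1.77 in the first group of mice. In mice 2, 7 and 8 they were 0.329, 0.885 and 1.16. In the first group, mice 3, 4, 5 and 6 had a CAST mother and mouse 1 a BL6 mother. Mice 2, 7 and 8 had a BL6 mother. The parts of depth and of the cross in this result were not tested. Without its prefrontal cortex library, the maternal mean of mouse 5 was 4.26 points over 5 regions and the paternal mean 0.78 points over 4.

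The difference between cerebellum and forebrain was then compared between ages and between crosses. For age, 0 of 16 pairs of region and allele passed (0%) and 0 had an unadjusted p under 0.05. Old minus young was 0.36 points at maternal Sox2ot (95% interval -2.28 to 3.00) and 0.07 points at paternal Sox2ot (-3.14 to 3.29), each with the cross in the model. The lowest p-values belonged to paternal Gnas, at -3.30 points, and maternal Commd1, at 2.74 points (limma adjusted p = 0.662 for each). The paternal interval includes -2.39 points, the cerebellum minus forebrain difference at paternal Sox2ot. The lower end of the maternal interval, -2.28 points, stops short of the maternal Sox2ot difference of -2.94 points, while its upper end is at 3.00 points. The size of age effect that these mice could detect was not tested.

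For the cross, 0 of 16 passed (0%) and 3 had an unadjusted p under 0.05. With a BL6 mother, the maternal Gnas difference averaged -2.50 points, and with a CAST mother 11.3 points (fitted effect -13.8, 95% interval -26.3 to -1.22, n = 8, limma adjusted p = 0.244). Without the prefrontal cortex library of mouse 5, this effect was -8.88 points and passed (95% interval -13.4 to -4.40, limma adjusted p = 0.0239). With mouse 5 left out altogether it was -7.91 points and did not pass (limma adjusted p = 0.143), and 0 passed on leaving out any of the 8 mice. Paternal Gnas had an effect of 5.70 points and maternal Commd1 one of -5.25 points (limma adjusted p = 0.244 for each), the latter named after its value was seen. At Sox2ot the effects were 0.65 points on the maternal and -0.08 points on the paternal allele. Within an age group the cross goes with a difference of 1 or 2 weeks in age, and the mother's strain with the strain of the allele, so these cannot be told apart.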

How the data were processed

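The values were deposited as a table with 1 percent and 1 coverage per CpG, genome and library. The deposited percent is the methylated calls over all calls at a CpG on reads of 1 genome, and the deposited count is the number of calls behind it. The product of both was a whole number of methylated calls to within 0.000266. The submitters' processing notes name Bismark 0.14.4, Trim Galore 0.6.6 and bcl2fastq 2.20, with build GRCm38. How reads were split by genome and how PCR copies were treated is not given in the sources used here, so calls may not be independent molecules. Reading genome 1 as BL6 is an assumption, since the labels leave it open, and the labelled cross then gave the parent of each allele. Columns were present for 48 of 72 samples, and the 24 samples of the other lane were not used here.

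A region's level is the mean over CpGs that passed the minimum of 50 calls in the cerebellum and at least 3 of 4 forebrain areas, with the same CpGs on both sides. A pair of region and allele was tested with values in at least 4 of 8 mice. The within-mouse difference was tested against 0 with limma 3.58.1 in R 4.3.3, two-sided, with Benjamini-Hochberg adjustment over all pairs of a comparison and a threshold of 0.05. Exact sign-flip permutation tests stand beside it. As an alternative, calls were tested with the quasi-likelihood fit of edgeR 4.0.16. Tests were checked on simulated data. The simulation added an equal spread to all pairs and held no outlying library, so it did not cover the uneven spread seen here. Figures were drawn with matplotlib 3.10.9.

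The mouse number marks the same animal in the labels, so it pairs the areas. The deviations of a mouse in cerebellum and forebrain correlated by -0.263 to 0.876 over the pairs of region and allele. The members and lists were chosen with earlier results of these data known. Named are the pairs past the threshold and the 3 largest other differences. For age, cross and unequal alleles, where 0 passed, named are the 2 lowest p-values. Of single CpGs, those past the threshold and the lowest and highest of Sox2ot are given. Coverage per CpG limits precision, and the counts of calls cover counting error only. Sequences are from RefSeq (GRCm38.p6), and the Sox2ot amplicon's own sequence was not used here. Alternatives were the coverage minimum, the areas required or left out, the scale, the pooling of calls, the fit, each mouse left out, and 1 library left out. The summaries over imprinted regions, and the tests of single pairs for unequal alleles and the cross, were repeated without that library or mouse after the data were seen.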

Additional observations from a re-analysis of the deposited data

Results flagged for a closer look

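Within-mouse differences were searched for a mouse far from the others in 17 pairs of region and allele, where chance marks about 1 in 20. Both that stood out were young mouse 5 at paternal alleles. At Plagl1 its difference was -12.7 points, with the nearest mouse at -0.987. Its prefrontal cortex library was at 62.8% there, against 1.59 to 5.66% in its other forebrain areas. At Commd1 its difference was 7.08 points, with the other mice all below 0. Its cerebellum library was at 14.8% there, against 2.16 to 5.92% in the other mice, and its prefrontal cortex library gave no value for that allele. The cause was not tested.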

How the results depend on the processing

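The sign of the Sox2ot difference was the same under each alternative that gave a value, and maternal Gnas, H13 and Commd1 stayed higher and uncalled. The count of 2 pairs of region and allele fell to 1 at a minimum of 20 or 100 calls, with all 4 areas or at least 1 area required, on the logit scale, without hypothalamus or nucleus accumbens, with age and cross as covariates, in edgeR, and after subtracting Klf4. It was 0 at 200 calls, where Sox2ot had too few mice, and 0 in exact sign-flip tests (adjusted p = 0.0885). In the sign-flip tests both Sox2ot alleles and paternal Klf4 stood at the smallest p that 7 mice allow (0.0156). That count therefore says little about them, and the sign-flip test does not set Sox2ot apart from paternal Klf4. Leaving out 1 mouse gave 1 to 2. Without the pairing by mouse (no replicate block) the count was 2, with limma adjusted p-values of 4.44e-04 for the maternal and 0.00819 for the paternal allele of Sox2ot. Maternal Sox2ot passed in each of these but the sign-flip test and, untested, 200 calls. Paternal Sox2ot ran up to an adjusted p of 0.286 (at least 1 area), and was not tested at 100 or 200 calls.

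The count of 3 CpGs was 1 at 20 calls, 0 at 100 and 200 calls and with all 4 areas required, and 11 without the prefrontal cortex library of mouse 5, with 0 to 4 on leaving out 1 mouse. The count for the cross was 1 without that library. Against the hypothalamus the count was 1 to 2 on leaving out 1 mouse, and against the nucleus accumbens 0 at 100 calls. The counts for age and for unequal alleles were 0 under each alternative run. Alternatives were not run for the comparisons with lung and between forebrain areas.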
